A study of Mus musculus with 6 samples.

Results

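The effector cytokine genes described here were Il2, Il3, Il9, Csf2, Tnf, Lta, Ltb and Lif, read on 6 mouse whole-genome expression arrays of induced regulatory T (iTreg) cells. A probe was taken as a member where the gene name in the scanner files equalled 1 of these 8 symbols and the spot was not a control. This gave 8 probes for 7 genes, out of 41174 probes and 27376 gene names on the array, with 2 probes for Il2 and 1 for each of the others. No probe carried the name Lif, the gene of leukaemia inhibitory factor. All 8 probes were well above background on all 6 arrays and all 8 entered the test.

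Effector cytokines are the secreted or surface-bound signals by which activated CD4+ T cells act on other cells. IL-2, the product of Il2, sustains T-cell growth and is needed by regulatory T cells, which make little of it themselves because Foxp3 represses its gene. GM-CSF (Csf2), IL-3 (Il3) and IL-9 (Il9) act on myeloid cells, mast cells and their progenitors, whereas TNF (Tnf), lymphotoxin-alpha (Lta) and lymphotoxin-beta (Ltb) form the tumour necrosis factor branch, which drives inflammation and the building of lymphoid tissue. After T-cell receptor and CD28 signals these genes are switched on by NFAT, AP-1 and NF-kappaB factors, and several of their messages are short-lived.

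The 3 cKO arrays carried RNA from 3 individual miR-31fl/flCD4Cre mice, in which the floxed miR-31 gene is deleted by Cre driven from Cd4 and therefore in cells of the T lineage that pass through the Cd4-expressing stage. The 3 control arrays carried RNA from 3 age-matched control mice, which the methods name as miR-31fl/fl, so both groups bore the floxed allele. All mice were 6 weeks old and on a C57BL/6 background. Spleen cells of both groups were sorted for the naive CD4+CD25-Foxp3gfp-CD62Lhi fraction and polarized for 4 days with plate-bound anti-CD3 at 5 µg/ml, anti-CD28 at 2 µg/ml, TGF-β1 at 5 ng/ml and, per the labels, IL-2 at 40 ng/ml, so the comparison was made in cells given IL-2 from outside. The question was whether these transcripts differed in iTreg cells that lacked miR-31. No probe was named for miR-31, so the deletion could not be checked on the arrays.

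The sequence of the deleted miRNA is shown because it defines the genotype, with its seed (bases 2 to 8) in capitals, from RefSeq at chr4:88910614-88910635 on the minus strand of GRCm38.p6.
miR-31-5p: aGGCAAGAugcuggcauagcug
A probe of Il2 and that of Il3 are shown because Il2 is the cytokine regulatory T cells depend on and Il3 was the member with the largest difference between groups. The second of the 2 Il2 probes, in order of brightness, lay at chr3:37024756-37024815 on the minus strand of mm9. The Il3 probe lay at chr11:54078997-54079056, also on the minus strand.
Il2 probe 2: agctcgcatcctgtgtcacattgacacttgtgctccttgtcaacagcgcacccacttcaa
Il3 probe: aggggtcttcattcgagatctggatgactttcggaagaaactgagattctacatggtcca
The other probes lay at chr13:56580678-56580737 for Il9, chr11:54060772-54060799 for Csf2, where the files place only 28 of 60 bases, chr17:35336795-35336854 for Tnf, chr17:35340275-35340334 for Lta and chr17:35333097-35333156 for Ltb. In RefSeq, Csf2 and Il3 are adjacent protein-coding genes, as are Ltb, Tnf and Lta, so the 7 genes represent 4 chromosomes.

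Values below are log2 signals minus the 75th percentile of the same array, so that 0 is the signal of a probe at that percentile and 1 unit is a doubling of signal. Signals of different probes depend on each probe's own binding and labelling, and no gene's level is set against another's. Every difference is cKO minus control on this log2 scale, tested by limma over all 22281 probes that were well above background on at least 3 arrays. RNA came from whole cultures, in which fewer cells that make a transcript and less of it in each cell cannot be told apart.

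The libraries were alike in depth of signal but not in agreement. Between 49.3% and 57.7% of spots per array were well above background and no spot was saturated. Arrays of the control group correlated with each other at r = 0.98 to 0.99 over all tested probes and those of the cKO group at 0.97 to 0.99, and array 3 of the cKO group had the lowest estimated quality weight, 0.174. Control array 1 shared a slide with the 3 cKO arrays, and control arrays 2 and 3 were on another slide. The T-cell label was checked by its markers: all 6 of Cd3d, Cd3e, Cd3g, Cd247, Cd4 and Cd28 were well above background on all 6 arrays, and Foxp3 was well above background on all 6 arrays, with a difference of -0.61 ± 0.22 (SE; limma adjusted p = 0.191, n = 3 and 3) that was -0.38 without cKO array 3. Of the 6 regulatory T cell markers, all tested, Foxp3 was lower and Ctla4 higher at an unadjusted p under 0.05, which 23.0% of all tested probes passed. Ctla4 differed by 0.94, Itgae by 0.85, Tnfrsf18 by 0.41, Ikzf4 by 0.07 and Il2ra by -0.55, with adjusted p from 0.137 to 0.660. The summed linear signal of the list, relative to the 75th percentile, was 146 to 193 in control and 189 to 214 in cKO. Most of that sum was Tnfrsf18, the brightest of the 6 at log2 6.46 to 7.44, so it says little of Foxp3 or Il2ra.

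No effector cytokine probe passed an adjusted p under 0.05, against 0.130% of all tested probes (29 of 22281). One of the 8, Il3, passed an unadjusted p under 0.05, against 23.0% of all tested probes. The groups did not overlap for 2 of the 8 probes, Il3 and Lta, against 36.6% of all tested probes, and both were lower in cKO, against 20.4%. For 8 probes, the first count was below the share of the array as a whole and the second near it. By the brightest probe of each gene, 6 of the 7 genes had a lower mean in cKO and 1 a higher mean, with a median difference of -0.27 beside -0.04 over all tested probes, of which 54.4% were below 0.

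**Figure D1:**
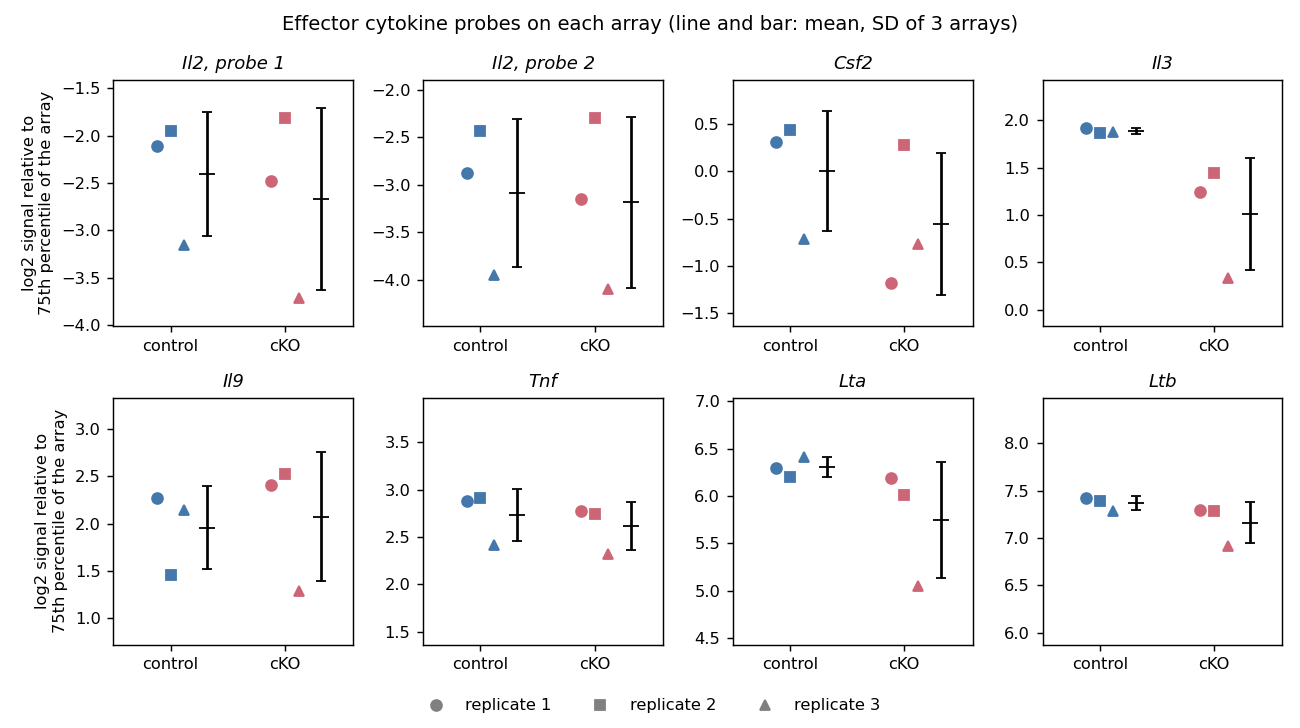
Log2 signal relative to the 75th percentile of the array (y axis, 2.6 units high in every panel) for each of the 8 probes in the control (blue) and cKO (red) groups; symbols are single arrays, and the line and bar beside them give the mean and SD of 3 arrays. Il3 is the panel in which the control arrays lie closest together, at 1.87 to 1.92, and all 3 cKO arrays lie below them, whereas the groups overlap for both Il2 probes, Csf2, Il9 and Tnf.

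Il3 encodes IL-3, a growth factor for haematopoietic progenitors, basophils and mast cells that activated T cells secrete. Its log2 signal was 1.92, 1.87 and 1.88 on control arrays 1 to 3 and 1.25, 1.44 and 0.33 on cKO arrays 1 to 3. All 3 cKO arrays were below the lowest control array, and cKO array 3 was the farthest below. The difference was -0.88 ± 0.29 (SE; 95% interval -1.58 to -0.18), or 0.543 times the control signal (limma adjusted p = 0.174). The unadjusted p was 0.0218. An exact two-sided permutation test gave p = 0.1, the smallest that 3 arrays against 3 allow. The control arrays spanned 0.06 and the cKO arrays 1.11, so nearly all of the spread was within the cKO group. Without cKO array 3 the difference was -0.54 (adjusted p = 0.109), and without control array 1 or control array 3 the unadjusted p was 0.0536 or 0.0517.

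Csf2, the neighbour of Il3, encodes GM-CSF, which activates macrophages, neutrophils and dendritic cells. Its log2 signal was 0.31, 0.43 and -0.72 on control arrays 1 to 3 and -1.18, 0.27 and -0.76 on cKO arrays 1 to 3. The groups overlapped, with control array 3 low and cKO array 2 as high as the controls. The difference was -0.56 ± 0.46 (SE; 95% interval -1.69 to 0.56; adjusted p = 0.469), smaller than the SD of 0.63 within the control group and of 0.75 within the cKO group. Leaving out single arrays moved it between -0.98, without cKO array 2, and -0.25, without cKO array 1.

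Il2 was read by 2 probes. Probe 1 gave -2.11, -1.95 and -3.15 on control arrays 1 to 3 and -2.48, -1.82 and -3.71 on cKO arrays 1 to 3. Probe 2 gave -2.88, -2.43 and -3.95 on the control arrays and -3.15, -2.29 and -4.10 on the cKO arrays, in the same order. By both probes the highest array was cKO 2 and the lowest cKO 3, so the range within cKO, 1.89 by probe 1 and 1.81 by probe 2, enclosed all 3 control arrays. Both probes were dim where they read lowest. The unscaled signal on cKO array 3 was 71.8 by probe 1 and 54.7 by probe 2, where the lowest signal well above background was 33.7. On control array 3 the signals were 116 and 66.7, where that lowest signal was 44.0. The difference was -0.27 ± 0.55 (SE; adjusted p = 0.777) by probe 1 and -0.10 ± 0.56 (adjusted p = 0.927) by probe 2. The 95% interval by probe 1 ran from -1.60 to 1.06, so these arrays leave room for a change of 0.330 to 2.09 times. Without cKO array 3 the difference turned to 0.25 by probe 1 and 0.36 by probe 2, and probe 2 was also above 0 without control array 1, at 0.01, or without control array 2, at 0.23. The 2 probes correlated at r = 0.97 over the 6 arrays, which they share.

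Il9 encodes IL-9, a mast-cell and epithelial growth signal that T cells make under TGF-β together with IL-4. Its log2 signal was 2.27, 1.46 and 2.14 on control arrays 1 to 3 and 2.41, 2.53 and 1.29 on cKO arrays 1 to 3. The 2 highest arrays and the lowest array were all cKO. The difference was 0.12 ± 0.39 (SE; 95% interval -0.82 to 1.06; adjusted p = 0.865), the only positive one among the 7 genes. It fell to -0.05 without cKO array 1, -0.11 without cKO array 2 and -0.13 without control array 2, and was 0.51 without cKO array 3. Within the slide that held both genotypes it was -0.20, in 3 cKO arrays against 1 control array.

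Tnf encodes TNF, which is cut from the cell surface by ADAM17 and signals through TNF receptors 1 and 2. Its log2 signal was 2.88, 2.91 and 2.42 on control arrays 1 to 3 and 2.78, 2.75 and 2.32 on cKO arrays 1 to 3. Replicate 3 was the lowest array in both groups. The difference was -0.12 ± 0.20 (SE; 95% interval -0.59 to 0.36; adjusted p = 0.722), or 0.921 times the control signal with bounds of 0.663 and 1.28, which was less than the SD within either group. Without cKO array 3 it was 0.03.

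Lta encodes lymphotoxin-alpha, which is secreted as a homotrimer or held at the surface by lymphotoxin-beta. Its log2 signal was 6.30, 6.20 and 6.42 on control arrays 1 to 3 and 6.19, 6.01 and 5.05 on cKO arrays 1 to 3. The groups did not overlap, but cKO array 1 lay just under the lowest control array and cKO array 3 carried most of the difference. The difference was -0.56 ± 0.30 (SE; 95% interval -1.29 to 0.18; p = 0.113, adjusted p = 0.299), and an exact two-sided permutation test gave p = 0.1, again the smallest possible. Without cKO array 3 it was -0.21, and without cKO array 1, -0.78 with an unadjusted p of 0.046. Under quantile normalization, median scaling, normexp with quantile normalization and the authors' value table, 1 rather than 2 of the member probes had groups that did not overlap.

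Ltb encodes lymphotoxin-beta, the membrane anchor of the lymphotoxin heterotrimer that binds the lymphotoxin-beta receptor on stromal cells. Its log2 signal was 7.42, 7.39 and 7.29 on control arrays 1 to 3 and 7.29, 7.29 and 6.91 on cKO arrays 1 to 3. The groups met at control array 3, which lay between the upper cKO arrays. The difference was -0.20 ± 0.14 (SE; 95% interval -0.54 to 0.13; adjusted p = 0.386), and without cKO array 3 it was -0.08.

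For Lif a probe bearing the clone name AK019683 rather than the gene's symbol was described in the files as a leukaemia inhibitory factor product, and it fell outside the rule. It was well above background on 4 of 6 arrays, at -4.50, -3.45 and -3.47 on control arrays 1 to 3 and -4.29, -4.25 and -4.20 on cKO arrays 1 to 3, with overlapping groups.

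The probes of Il2 (probe 1), Csf2, Tnf and Lta, were printed 10 times on each array, which gives the error of reading one hybridization. The spread between arrays holds mice and cultures as well as labelling, hybridization, scaling and slide, which cannot be told apart. The median SD between replicate spots was 0.102 for Il2, 0.0611 for Csf2, 0.0577 for Tnf and 0.0650 for Lta. The SDs between the 3 cKO arrays were 0.96, 0.75, 0.26 and 0.61, and those between the 3 control arrays 0.65, 0.63, 0.28 and 0.11. The spread between arrays exceeded that between spots of the same array for each of these 4 probes, least for Lta in the control group, and the number of arrays limits the precision. Il3, Il9 and Ltb had 1 spot per array and no such check.

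**Figure D2:**
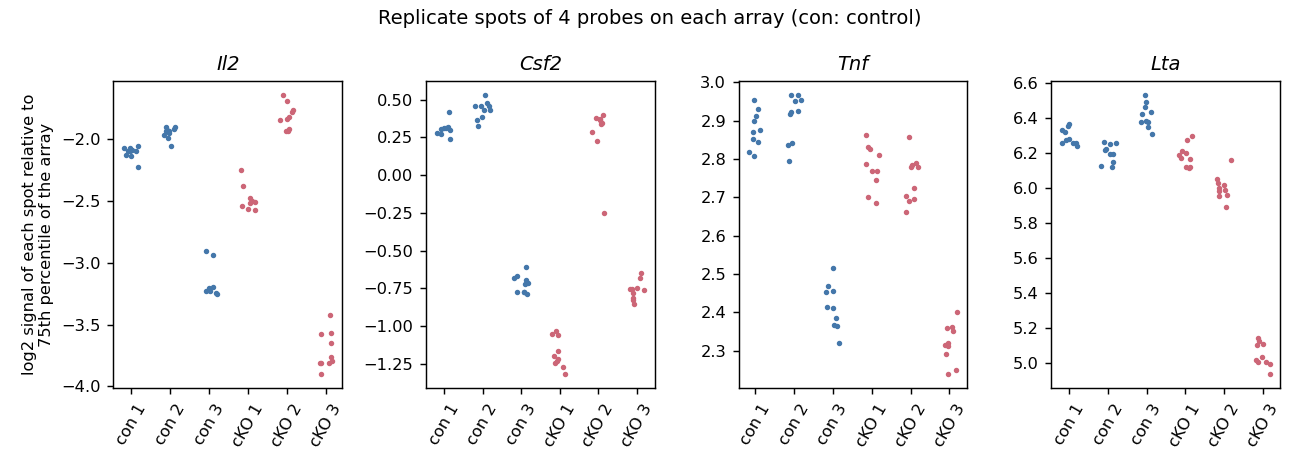
Log2 signal of each kept replicate spot relative to the 75th percentile of its array (y axis, a different range in each panel) for the 4 probes printed 10 times, by array (x axis; con, control in blue; cKO in red). Spots of one array cluster tightly, while Il2 and Csf2 differ by more than 1 unit between arrays of the same group, and cKO 3 lies far below the other arrays for Lta.

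**Figure D3:**
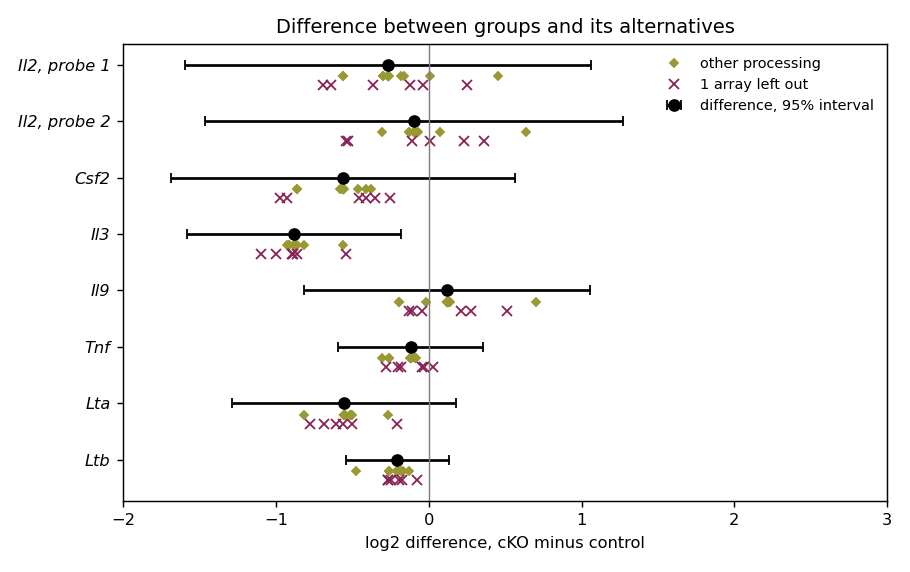
Log2 difference, cKO minus control (x axis), for each probe: black points and bars give the estimate and its 95% interval from limma, diamonds the estimate under other processing and crosses the estimate with 1 array left out. Only the interval of Il3 lies wholly below 0, and all its alternatives stay below 0, whereas those of Il2, Il9 and Tnf fall on both sides.

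The lowest values lay mostly on 1 array. Of the 8 probes, 7 were lowest on cKO array 3, which was also the lowest array for 34.5% of all tested probes. Csf2 was the exception, lowest on cKO array 1. Control array 3 was the lowest control array for both Il2 probes, Csf2, Tnf and Ltb, but the highest for Lta. Over the 6 arrays Il2 and Tnf correlated at r = 0.93, Il3 and Lta at 0.94, Il3 and Ltb at 0.94, and Csf2 and Il9 at -0.01. Among genes of the same cluster, Csf2 and Il3 gave r = 0.52, Tnf and Lta 0.58, Ltb and Tnf 0.82, and Lta and Ltb 0.93. These correlations describe 6 arrays, scaled alike and spread over 2 slides. Within the slide that held both genotypes, the mean of the cKO arrays differed from control array 1 by -0.92 for Il3, -0.86 for Csf2, -0.56 for Il2, -0.55 for Lta, -0.26 for Tnf and -0.26 for Ltb, with 1 control array and no test. For Il2, cKO array 2 lay above control array 1 by both probes.

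**Figure D4:**
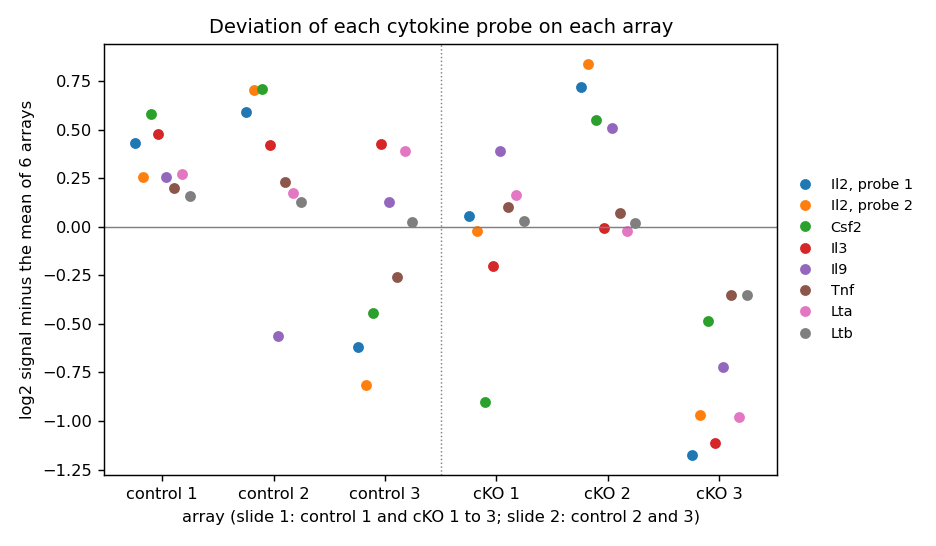
Log2 signal of each probe minus its own mean over 6 arrays (y axis), by array (x axis), with one colour per probe. All probes lie below 0 on cKO 3, those of Il2, Il3, Il9 and Lta by 0.72 or more, while on control 3 Il2, Csf2 and Tnf are low and Lta is high.

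By likeness over the 6 arrays, the genes nearest to Il2 were Ankfy1, Ercc4 and Muc13 (r = 0.985 to 0.992) and those nearest to Csf2 were Nceh1, Ndufb9 and Fntb (0.988 to 0.997). Il3 was nearest to Kifc5b and Hist4h4, Lta to Recql4, Psmd7 and Myo19, and Ltb to Mrpl40, BC017158 and Emc4, all at 0.997 or above. Tnf was nearest to Abcb8, Tmbim6 and Arf5 (0.970 to 0.993) and Il9 to Clhc1, Znf512b and Btg3 (0.977 to 0.982). How common such a pattern was differed widely. Of 14344 other genes, 1292 lay above r = 0.95 with Lta, 1010 with Il3 and 508 with Ltb, but 42 with Il2, 37 with Csf2, 13 with Tnf and 8 with Il9.

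The stretch before the start site was read for the 3 genes shown here: Il2, the cytokine in which NFAT control is best known, and Il3 and Lta, the 2 whose groups did not overlap. Each line gives the 250 bases before the annotated RefSeq start, on the gene's strand, at chr3:37125955-37126204 for Il2, chr11:54267280-54267529 for Il3 and chr17:35205352-35205601 for Lta in GRCm38.p6, all on the minus strand. Capitals mark the NFAT core letters GGAAA on either strand.
Il2: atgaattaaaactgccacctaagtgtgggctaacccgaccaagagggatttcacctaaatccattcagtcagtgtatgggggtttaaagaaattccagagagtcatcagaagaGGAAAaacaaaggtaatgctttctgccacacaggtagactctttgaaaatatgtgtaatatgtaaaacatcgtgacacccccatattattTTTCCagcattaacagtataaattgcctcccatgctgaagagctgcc
Il3: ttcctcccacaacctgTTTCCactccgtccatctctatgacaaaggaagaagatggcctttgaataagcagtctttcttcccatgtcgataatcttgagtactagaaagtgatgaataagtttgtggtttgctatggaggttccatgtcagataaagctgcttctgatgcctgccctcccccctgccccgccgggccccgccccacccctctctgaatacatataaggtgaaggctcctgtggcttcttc
Lta: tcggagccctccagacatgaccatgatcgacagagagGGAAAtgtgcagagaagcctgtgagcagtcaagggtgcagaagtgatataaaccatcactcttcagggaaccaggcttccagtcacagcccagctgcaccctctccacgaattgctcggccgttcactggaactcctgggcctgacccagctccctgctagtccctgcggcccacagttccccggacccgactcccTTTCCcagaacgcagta
The GGAAA core was present in all 8 member windows, 1 to 3 times each, and in 55.6% of 32851 such windows of other and member genes. An AP-1 element, TGANTCA on either strand, was present in those of Il9 and Lif, against 6.75% of all windows. The letters TATAAA on the gene's strand stood 31 bases before the start of Il2 and 29 bases before that of Tnf, and farther away, at 167 bases, in Lta, against 7.59% of windows at any place. An NF-kappaB consensus was found in those of Ltb, where it overlapped the GGAAA core, and Lif, against 7.25%.

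The receptors of these cytokines come next. Of 14 receptor genes on the array 10 were tested, of which 3 were higher in cKO and 0 lower at an unadjusted p under 0.05 (23.0% of all tested probes pass it in either direction, 11.7% as higher and 11.3% as lower), and the median difference was 0.08. None passed the adjusted threshold. Il2rb, the signalling chain of the IL-2 receptor, differed by 0.56 ± 0.18 (SE; limma adjusted p = 0.167), while its partners Il2ra and Il2rg gave -0.55 ± 0.33 (adjusted p = 0.333) and -0.22 ± 0.16 (adjusted p = 0.421). Il3ra, the IL-3-binding chain, differed by 0.37 ± 0.15 (adjusted p = 0.211). Csf2rb, the common beta chain through which IL-3 and GM-CSF signal, had log2 signals of -3.35, -3.89 and -5.50 on the control arrays and -2.40, -2.10 and -2.38 on the cKO arrays. All cKO arrays lay above all control arrays, with a difference of 1.95 ± 0.53 (adjusted p = 0.144), or of 1.33 without control array 3. The probe was well above background on 5 of 6 arrays, 3 cKO and 2 control, so the size of that difference is uncertain. The gene's other tested probe gave -0.38, and cross-hybridization of its close paralogue Csf2rb2 was not tested. Csf2ra gave 0.04, Tnfrsf1a 0.04, Tnfrsf1b 0.20, Tnfrsf14 -0.37 and Il6st 0.12, with adjusted p from 0.293 to 0.880. Csf2rb2, Il9r and Ltbr were well above background on 0 arrays and Lifr on 1, so no difference was measurable for them.

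Among 26 tested transcription factors of cytokine genes, 8 were higher and 2 lower in cKO at an unadjusted p under 0.05, beside 11.7% and 11.3% of all tested probes. The median difference was 0.09, and 0 passed the adjusted threshold. The highest differences were those of Prdm1, the gene of Blimp-1, a repressor of Il2, at 1.74 ± 0.41 (SE; adjusted p = 0.122), of Fosl2, an AP-1 subunit, at 1.50 ± 0.36 (adjusted p = 0.128), and of Batf3, a BATF-family AP-1 factor, at 1.35 ± 0.33 (adjusted p = 0.128). The 2 lower genes were Fosb, another AP-1 subunit, at -0.97 ± 0.34 (adjusted p = 0.186), and Runx1, at -0.55 ± 0.14 (adjusted p = 0.138). The other tested probe of Runx1 gave -0.15. The NFAT genes Nfatc1, Nfatc2 and Nfatc3 gave -0.22, -0.25 and 0.12, with unadjusted p from 0.179 to 0.390.

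Of the 16 regulators of cytokine mRNA stability, all tested, 2 were higher and 1 lower at an unadjusted p under 0.05, beside 11.7% and 11.3% of all tested probes. The median was -0.02, with 0 adjusted calls. Zfp36, whose product tristetraprolin binds AU-rich elements and speeds the decay of Tnf and Csf2 messages, differed by 0.80 ± 0.24 (SE; adjusted p = 0.160), and Zc3h12d by 0.35 ± 0.13 (adjusted p = 0.192). Zc3h12a, the gene of the endoribonuclease Regnase-1, which cleaves cytokine messages, was the lower one at -0.51 ± 0.11 (adjusted p = 0.117).

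Of 20 other helper T cell cytokines 14 were tested, and 2 were higher and 2 lower at an unadjusted p under 0.05, beside 11.7% and 11.3% of all tested probes. The median was 0.15, with 0 adjusted calls. Ifng, the gene of interferon-gamma, differed by 1.42 ± 0.58 (SE; adjusted p = 0.216), or by 0.76 without control array 3, and Ebi3, a subunit of IL-27 and IL-35, by 1.19 ± 0.22 (adjusted p = 0.0965). Osm, the gene of oncostatin M and the neighbour of Lif, differed by -1.13 ± 0.36 (adjusted p = 0.169), or by -0.70 without cKO array 3. Areg, the gene of amphiregulin, was well above background on the 3 control arrays and on 0 cKO arrays. It differed by -1.11 ± 0.17 (adjusted p = 0.0699). The cKO signals were not well above background, so the size of that difference is uncertain. The Il6, Il17a, Il21 and Il22 probes were well above background on 0 arrays and those of Il5 and Il13 on 1. In the 11 tested genes of cytokine release and processing, the 1 past an unadjusted p under 0.05 was Stx7, an endosomal syntaxin, at 0.49 ± 0.11 (adjusted p = 0.122). That threshold was passed by 23.0% of all tested probes. Adam17, the protease that sheds TNF, gave -0.08 ± 0.09 (adjusted p = 0.596). With the slide as a term, 2 genes over the 5 lists were higher and 2 lower at that threshold, beside 16 and 5 without it. Over all tested probes, 1639 passed it with the slide as a term and 5118 without.

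**Figure D5:**
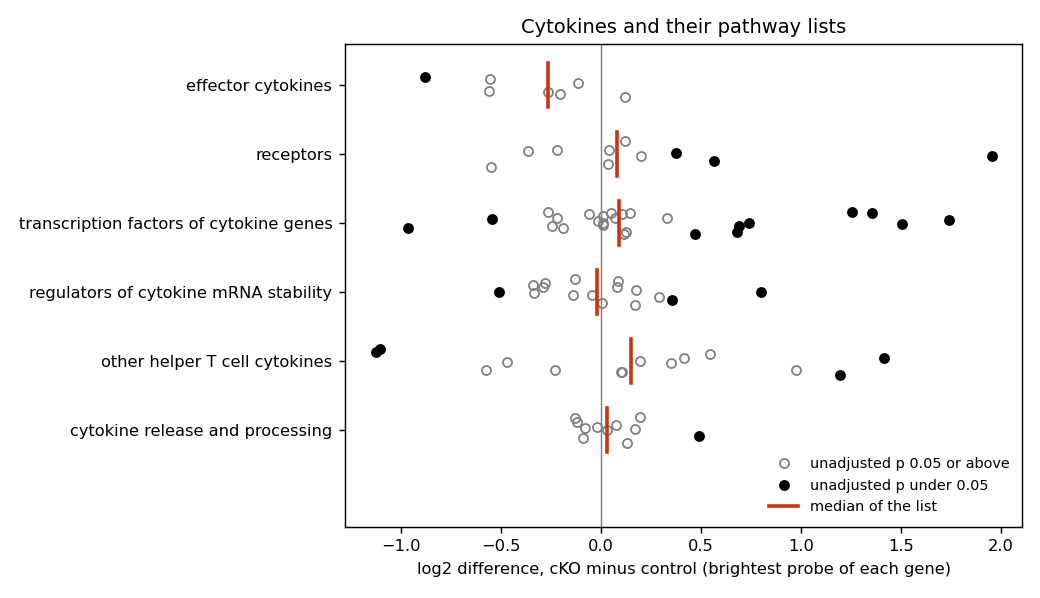
Log2 difference, cKO minus control (x axis), of each tested gene by its brightest probe, for the effector cytokines and 5 pathway lists (rows, with vertical scatter for legibility). Filled points have an unadjusted limma p under 0.05 and red bars are list medians, from -0.27 for the cytokines to 0.15 for the other helper T cell cytokines.

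Markers of other cells that make or could add to these transcripts were measured alongside. Of 6 mast-cell and basophil markers 1, Kit, was tested, Cpa3 and Fcer1a were well above background on 1 array, Mcpt4 and Mcpt8 on 2 and Ms4a2 on 0. Their summed linear signal, relative to the 75th percentile, was 0.248 to 0.590 in control and 0.352 to 1.92 in cKO. Of 6 markers of CD8 T and NK cells 4 were tested and 1, Klrk1, passed an unadjusted p under 0.05 as higher in cKO with overlapping groups (limma adjusted p = 0.203). That threshold was passed by 23.0% of all tested probes. Cd8a differed by -0.86 (adjusted p = 0.255), Cd8b1 by -0.17 and Eomes by 0.17. The sums were 5.96 to 7.36 in control and 5.63 to 6.43 in cKO. Of 6 myeloid markers 2 were tested and 1, Cd68, passed the same threshold as higher (adjusted p = 0.187), with sums of 0.245 to 0.419 and 0.274 to 0.364. For B cells the sums were 0.406 to 0.662 and 0.584 to 1.35, with Cd22 and Pax5 on 0 arrays. The sums of erythroid markers, 0.233 to 0.433 in control and 0.515 to 1.15 in cKO, and of epithelial markers, 0.858 to 0.963 and 1.42 to 2.08, did not overlap between the groups, with Alas2, Krt8 and Krt19 not above background on any array. Nor did those of T-cell markers, 119 to 135 and 143 to 201. Groups did not overlap for 36.6% of all tested probes. Such sums follow their brightest gene, Cd3d for T cells, and of 5 erythroid markers only Hbb-b1 was tested. Of the 6 T-cell markers 4 were higher and 1, Cd3e, was lower at an unadjusted p under 0.05. Cd3e differed by -0.27 (limma adjusted p = 0.180) and, by its other tested probe, by 0.78. The part of such cells in the values of the cytokine genes was not tested.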

How the data were processed

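Cy3-labelled RNA of 6 cultures was hybridized to one-colour Agilent arrays. The authors deposited scanner output of Feature Extraction (10.7.3.1 in the file headers, 9.1 in the submitters' processing notes), and its processed intensity (gProcessedSignal), background-corrected per the file headers, was used here with mm9 coordinates. The authors also deposited a table of log2 values, used as an alternative. Control spots and outlier-flagged spots (123 to 140 per array) were dropped, spots of a probe averaged as log2, and the 75th percentile over probes subtracted from each array. The test covered the 22281 probes (54.1%) that exceeded background clearly on 3 or more arrays, fitted with limma 3.58.1 in R 4.3.3 and Benjamini-Hochberg adjustment over all of them. 19 tested probes lacked a value on an array. On simulated data with 200 probes changed by 2 log2 units, 83.5% were recovered and 11 unchanged probes were called. The simulated noise was independent between probes, with no slide or array effect, and the change was larger than that of any member. It therefore does not give the recovery of differences as small as theirs.

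The members and gene lists were chosen with earlier results of these data known, and nothing is supported by that choice. Named were all member probes, the receptors, up to 3 genes each way per list at an unadjusted p under 0.05, and the 3 genes most correlated with each member, of which 1 is not reported here. All 8 member accessions matched RefSeq by symbol. The methods name a lower IL-2 dose and another RNA kit than the labels. Alternatives covered background correction, scaling, filter, test, slide, replicate number and single arrays.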

Additional observations from a re-analysis of the deposited data

How the results depend on the processing

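No effector cytokine probe passed an adjusted p under 0.05 under any of the 18 other fits, in which Il3 stayed negative with adjusted p from 0.0675 to 0.725. Csf2, Lta and Ltb also stayed negative. Normexp correction with the 75th percentile, which moved the median of all probes by 0.14 to 0.10, gave 0.45 for Il2, 0.64 for its second probe and -0.0213 for Il9, and moved Tnf to -0.30 and Ltb to -0.48. Array weights gave 0.0083 for Il2, 0.0753 for its second probe, 0.70 for Il9 and -0.27 for Lta. With the slide as a term Il9 was -0.20, the same value as within the slide that held both genotypes. The other slide held control arrays only, so both values set the 3 cKO arrays against control array 1 and are not separate checks. The cause of the changes under normexp and array weights was not tested. Leaving out single arrays gave -0.69 to 0.25 for Il2, -0.54 to 0.36 for its second probe, -0.13 to 0.51 for Il9 and -0.28 to 0.0291 for Tnf.

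One member probe passed an unadjusted p under 0.05, and 0 did under the methods' t-test or with the slide as a term, and 0 to 2 without single arrays. The count of member probes whose groups did not overlap, 2, was 1 under quantile normalization, normexp with quantile normalization, median scaling and the authors' table. It was 3 under normexp with the 75th percentile and 2 to 5 without single arrays. The share of all tested probes, 36.6% in the main fit, was not counted in these settings. Groups of 2 and 3 arrays also separate more easily than 3 and 3, so the counts without single arrays cannot be set against it. The count of all probes with an adjusted p under 0.05, 29, was 115 under normexp with quantile normalization, 79 under median scaling, 175 when all 6 arrays had to be above background, 98 with trend and robust fitting and 1824 with array weights. It was 0 under normexp with the 75th percentile, without a filter, under the methods' t-test (4044 at an unadjusted p under 0.05) and with the slide as a term, and 0 to 1 without single arrays. Over the 5 pathway lists, 16 genes higher and 5 lower at an unadjusted p under 0.05 became 7 and 2 under normexp with the 75th percentile. They became 2 and 2 with the slide as a term, and 10 to 15 and 4 to 7 without single arrays. The calls over all 22281 tested probes moved too, from 5118 to 1654 under normexp with the 75th percentile and 1639 with the slide as a term. Without single arrays there were 2863 to 6469, so these list counts are no result particular to the lists.

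With the replicate number as a block the count of all probes was 0 and the member differences did not move (Il3 -0.88, adjusted p = 0.294). The block lowered the SE of Il2 from 0.55 to 0.18 and that of its second probe from 0.56 to 0.14. It also lowered that of Csf2 from 0.46 to 0.34 and that of Tnf from 0.20 to 0.12, and those of Il3 and Ltb slightly. The SEs of Il9 and Lta were not lowered. Over all tested probes, the deviations of same-numbered arrays from their group means correlated at r = -0.14, 0.01 and -0.19. Those of differently numbered arrays correlated at -0.17 to 0.27. Whether the numbers mark cultures or arrays handled together was not tested. With 3 arrays per group, changes within the intervals given for each cytokine are not resolved.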
